A study of Mus musculus with 22 samples.

Results

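*Phf8* and its paralogs *Phf2* and *Kdm7a* (older name *Jhdm1d*) are the 3 genes of a small family of histone demethylases. They were chosen by gene identity, through their Ensembl identifiers, among the 39179 gene identifiers counted in each of 22 RNA-seq samples. All 3 passed the filter on low counts in each of the 4 tissues or cell types. The study removed exons 7 and 8 from *Phf8*, which is X-linked, and compared wild-type (WT) with *Phf8* knockout (KO) samples, all labelled with the B6x129SvJ background. The groups were embryonic stem cells (ESCs, 2 WT and 2 KO samples, derived from blastocyst outgrowths and kept on gelatin or feeder cells), neural progenitor cells (NPCs, 3 WT and 3 KO samples of monolayers from E16.5 embryos), and the ventral striatum (STR) and prefrontal cortex (PFC), with 3 WT and 3 KO samples each from mice of 2 months. Per the study's methods, the allele was made in male V6.5 ESCs, with *loxP* sites around the exons and a Cre vector, and the cells were clonally expanded after each step. Because the targeted cells passed through single clones, a difference between clones cannot be told apart from the deletion in cells taken from them, and the labels do not say which clone each sample came from.

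PHF8, PHF2 and KDM7A each join a plant homeodomain, which reads methylated lysine 4 of histone H3, to a Jumonji C (JmjC) domain, which removes methyl groups with the help of iron and 2-oxoglutarate. PHF8 acts on lysine 9 of H3 in its lower methylation states and on monomethylated lysine 20 of H4, KDM7A on lysines 9 and 27 of H3, and PHF2 on lysine 9 of H3 together with the DNA-binding protein ARID5B. Mutations of *PHF8* cause an X-linked intellectual disability with cleft lip or palate. Related enzymes with overlapping substrates are a reason to ask how much *Phf8* RNA remains in the KO and whether the paralogs change with it.

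In GRCm38 the plus strand of chrX:151520672-151633859 holds *Phf8* (ENSMUSG00000041229). *Phf2* (ENSMUSG00000038025) is on the minus strand of chr13:48801750-48871119, and *Kdm7a* (ENSMUSG00000042599) on the minus strand of chr6:39136623-39206789. In transcript Phf8-201, which has 22 exons and 5728 bases, exon 7 is chrX:151554134-151554320 and exon 8 is chrX:151555973-151556135, both fully coding. Exon 7 is shown because it holds the iron-binding histidine and aspartate of the JmjC domain, whose codons, 247 and 249, are in capitals. The last 30 bases of exon 6 (chrX:151552598-151552627) and exon 9 (chrX:151565372-151565459) are shown because the deletion joins them, and the capitals in exon 9 mark the first stop of the shifted frame. Exon 8 completes the deleted sequence.
exon 6, last 30 bases: tgtcattagtttggaattctccgataccag
exon 7: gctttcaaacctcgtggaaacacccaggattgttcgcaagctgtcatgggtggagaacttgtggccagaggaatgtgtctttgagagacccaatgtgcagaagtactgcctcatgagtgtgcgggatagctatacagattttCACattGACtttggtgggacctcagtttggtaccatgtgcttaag
exon 8: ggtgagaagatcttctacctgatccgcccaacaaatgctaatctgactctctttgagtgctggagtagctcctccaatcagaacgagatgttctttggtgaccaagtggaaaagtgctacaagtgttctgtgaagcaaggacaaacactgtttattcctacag
exon 9: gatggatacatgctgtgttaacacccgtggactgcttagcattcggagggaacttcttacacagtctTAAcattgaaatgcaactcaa

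Exons 7 and 8 together hold 350 bases, which leaves a remainder of 2 after division by 3. Joined without them, the transcript reads 198 codons from before the junction and meets the stop in exon 9 after 221 codons in all, against 1023 codons in the intact frame. The stop lies 67 bases past the junction and 13 exons follow the one that carries it. Of the 11 annotated *Phf8* transcripts, 7 hold both deleted exons. The 350 bases are 6.11% of Phf8-201 and 3.76% of the exonic bases on which reads of the gene could be counted. The counts, which are per gene, do not show which exons the remaining reads came from. The part of the deleted bases in a lower count was not tested.

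**Figure D1:**
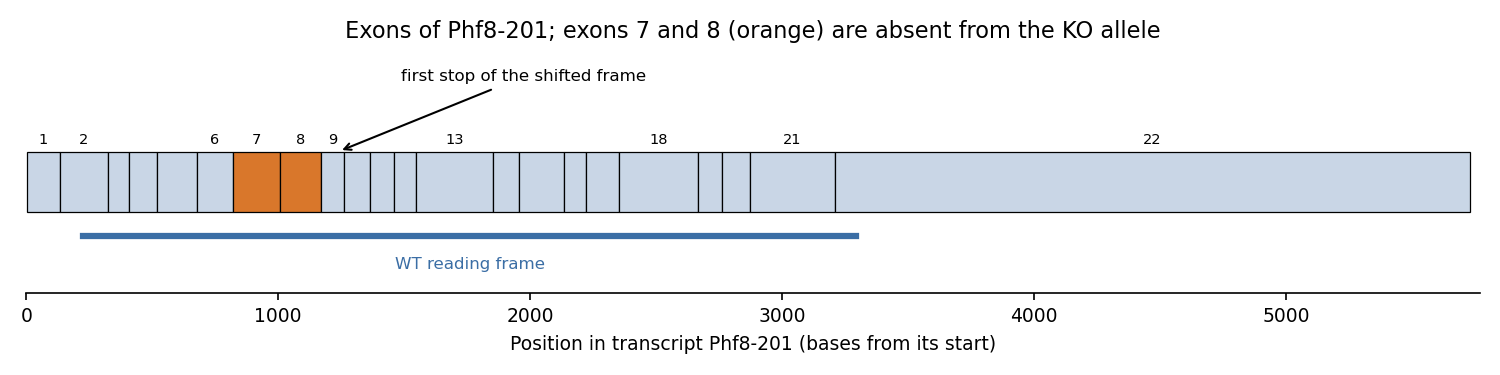
Exons of transcript Phf8-201 drawn to scale, with position in bases from the transcript's start on the horizontal axis. The 2 deleted exons (orange, 350 bases) lie early in the WT reading frame (blue line, 1023 codons), and the first stop of the shifted frame falls in exon 9.

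The same stretch around the iron-binding codons (capitals) shows how alike the genes are. It spans 51 bases in exon 7 of *Phf8* (chrX:151554255-151554305, plus strand), exon 6 of *Phf2* (chr13:48822964-48823014, minus strand) and exon 6 of *Kdm7a* (chr6:39170139-39170189, minus strand).
Phf8: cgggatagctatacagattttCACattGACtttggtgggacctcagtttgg
Phf2: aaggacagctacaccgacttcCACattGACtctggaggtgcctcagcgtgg
Kdm7a: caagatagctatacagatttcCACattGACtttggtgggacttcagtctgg
*Phf8* and *Kdm7a* share 46 of these 51 bases (90.2%), and *Phf2* shares 38 (74.5%) with each of the others. Over the whole transcripts the longest identical run is 20 bases between *Phf8* and either paralog and 33 bases between *Phf2* and *Kdm7a*. The counting kept reads with a single place in the genome. The exons of 2 antisense genes overlap those of a paralog, 4930599N23Rik by 287 bases of *Kdm7a* and Phf2os1 by 8 bases of *Phf2*. Without strand, reads in these overlaps cannot be told apart, but the antisense genes had only 2 to 21 and 0 to 37 counts per sample, against at least 566 for *Kdm7a* and 191 for *Phf2*.

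Total counts on genes were 11455757 to 15539811 per ESC or NPC sample and 5898286 to 10148073 per brain sample. Markers of the labelled tissue were higher in its own samples than in all others for 5 of 6 ESC, 5 of 6 NPC, 6 of 6 STR and 6 of 6 PFC genes, the exception being *Sox2*, which marks both cultured cell types. Some samples stood apart. The summed level of 6 fibroblast markers (*Col1a1*, *Col1a2*, *Col3a1*, *Postn*, *Col6a3* and *Thbs2*, markers of feeder cells) was 173 and 164 CPM (counts scaled to library size) in replicate 1 of the WT and KO ESCs, 3850 and 4670 CPM in replicate 2, and 10.7 to 69.9 CPM in all other samples. The summed level of 4 Y-linked genes was 165 and 203 CPM in WT ESCs but 9.01 and 36.3 CPM in KO ESCs, and was 91.4 CPM in 1 WT NPC sample against 380 to 662 CPM in the other 5. *Xist*, the RNA of the inactive X chromosome, stood at 21.3 and 24.3 CPM in KO NPC replicates 1 and 3, against 0.0734 to 3.71 CPM in the other 4 NPC samples. In replicates 1 and 2 of the ESCs *Xist* was 14.8 and 48 CPM in WT and 12.2 and 60.3 CPM in KO. Its part in the results was not tested. In STR, 6 hypothalamic markers summed to 5.94 to 127 CPM in KO and 1.32 to 3.40 CPM in WT samples. In PFC, 6 oligodendrocyte markers summed to 1390 to 1480 CPM in KO and 1690 to 2240 CPM in WT samples. In these bulk samples, fewer cells of a type and less RNA per cell cannot be told apart. The values that touch a result stand beside it, and their part in the results was not tested unless stated.

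In WT samples the 3 genes had different patterns across tissues. Levels are given in RPKM, counts scaled to the exon length of the gene and to the TMM-adjusted size of the library over all 22 samples. Exon length is that of all annotated exons merged, at 9318 bases for *Phf8*, 5494 for *Phf2* and 10057 for *Kdm7a*. The longest transcripts hold 6359, 5494 and 9566 bases. Comparisons between genes depend on this choice, and *Phf8* would stand higher beside its paralogs with the longest transcript as length. *Phf8* was 7.65 and 6.79 RPKM in the WT ESC samples. It was 4.40, 4.40 and 4.65 RPKM in WT NPCs, 5.33, 4.68 and 4.98 RPKM in WT STR, and 4.95, 4.79 and 4.14 RPKM in WT PFC. Both ESC samples were above all 9 other WT samples. The PFC samples overlapped the other 2 groups, and each STR sample was slightly above each NPC sample. The share of all genes that separate WT tissues in this way was not counted. Separation is therefore given only as a description for each of the 3 genes.

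*Phf2* ran the other way. Its level was 3.54 and 4.52 RPKM in WT ESCs, and 26.3, 24.2 and 25.4 RPKM in WT NPCs. It was 15.9, 16.9 and 16.8 RPKM in WT STR and 14, 15.7 and 14.2 RPKM in WT PFC. The NPC samples were thus the highest and the ESC samples the lowest of the WT samples, with no overlap with any other tissue, and each STR sample was above each PFC sample.

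*Kdm7a* varied more among replicates than the others in 3 of the 4 WT groups, with coefficients of variation of 22.8% in ESCs, 32.8% in NPCs and 15.7% in STR. In PFC it was 8.84%, close to the 9.26% of *Phf8*. It was 8.29 and 5.99 RPKM in WT ESCs and 8.66, 5.22 and 10.5 RPKM in WT NPCs. In the brain it was 11.95, 8.79 and 9.91 RPKM in WT STR and 11.1, 9.47 and 9.59 RPKM in WT PFC. All 4 tissues overlapped except ESCs with both brain regions, where the higher ESC value stayed below the lowest brain value.

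**Figure D2:**
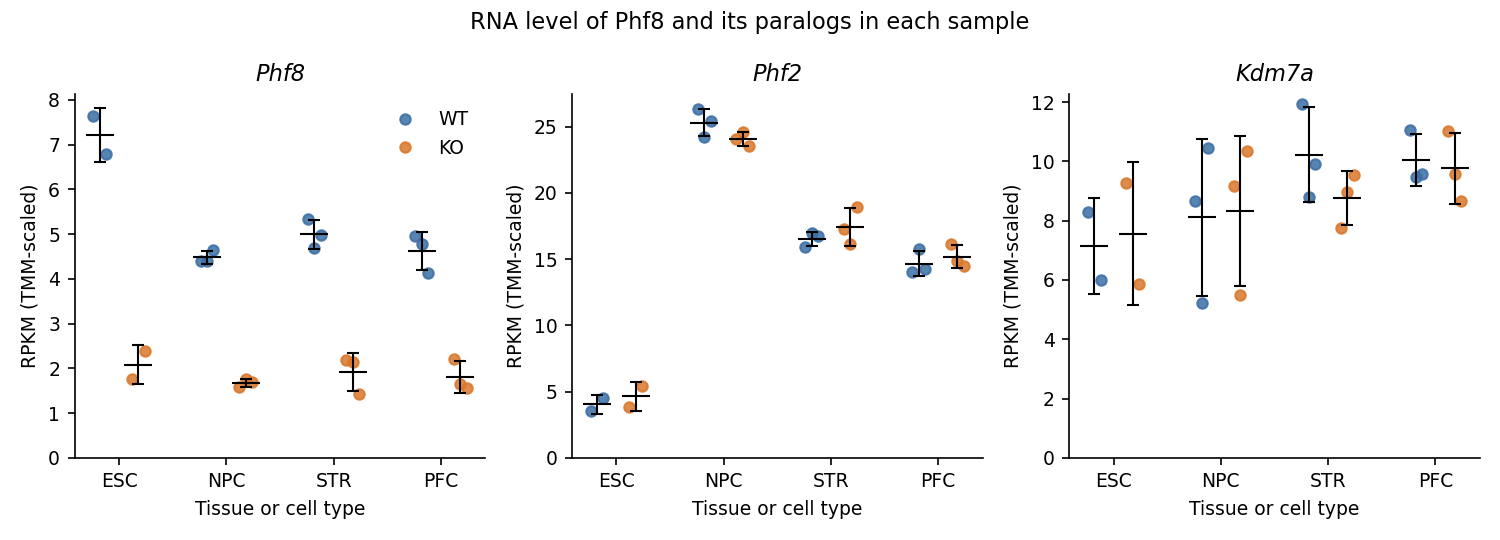
RPKM of *Phf8*, *Phf2* and *Kdm7a* (vertical axes, each from 0) in every sample, by tissue or cell type, WT in blue and KO in orange, with black bars for the group mean and SD (n = 2 in ESCs, 3 elsewhere). *Phf8* KO samples sit between 1.44 and 2.39 RPKM, below every WT sample, while WT and KO samples of the paralogs overlap in each tissue.

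Tests between WT tissues were run in one edgeR quasi-likelihood fit over the 11 WT samples, with Benjamini-Hochberg adjustment over all 17672 genes tested. *Phf8* was lower than in ESCs by log2 fold changes of -0.73 in NPCs (SE 0.106, FDR 7.45e-05), -0.56 in STR (SE 0.106, FDR 4.79e-04) and -0.71 in PFC (SE 0.106, FDR 7.83e-05). That puts the other tissues at 60.2% (95% interval 51.2 to 70.7), 68% (57.8 to 79.9) and 61.4% (52.2 to 72.2) of the ESC level. Cell and brain samples also differed in reads without a single place in the genome. These were 33.2% to 45.5% of the reads listed per ESC or NPC sample and 7.62% to 8.9% per brain sample. For all 3 genes, the part of this in differences between cells and brain was not tested. NPCs, STR and PFC did not differ detectably from one another with TMM scaling (FDR 0.119, 0.803 and 0.413). A difference between tissues is common in these data: 72%, 82.4% and 82.3% of all genes passed the same threshold in NPCs, STR and PFC against ESCs. Passing this test therefore does not set *Phf8* apart from other genes.

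For *Phf2* the log2 fold changes against WT ESCs were 2.603 in NPCs (SE 0.121, FDR 1.22e-08), 2.01 in STR (SE 0.119, FDR 3.04e-08) and 1.80 in PFC (SE 0.118, FDR 6.98e-08), or 6.07-fold, 4.02-fold and 3.48-fold. Against NPCs, *Phf2* was lower by a log2 fold change of -0.59 in STR (FDR 1.75e-04) and -0.81 in PFC (FDR 1.6e-05), where 75.2% of all genes passed in each comparison. PFC and STR were not separated (log2 fold change -0.21, 95% interval -0.42 to 0.00, FDR 0.211), in a comparison in which 12.3% of genes passed. *Kdm7a* passed in none of the 6 comparisons with TMM scaling. Its log2 fold changes ran from -0.06 (PFC against STR, FDR 0.928) to 0.49 (STR against ESC, 95% interval -0.09 to 1.07, FDR 0.103).

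The scaling between such different tissues matters for these calls. Against ESCs, the median of all genes stood at 0.14 (log2) in STR and 0.10 in PFC after TMM scaling, but at 0.59 and 0.52 when counts were only divided by their totals. Without the scaling factor *Phf8* no longer passed between ESCs and STR (log2 fold change -0.09, FDR 0.484) or PFC (-0.26, FDR 0.0524). Taken relative to the median gene, however, *Phf8* had nearly the same log2 difference from ESCs under TMM, RLE and no factor, at -0.69, -0.69 and -0.68 in STR and at -0.80, -0.80 and -0.77 in PFC. The *Phf2* differences against ESCs passed under all 3, but its difference between STR and NPCs no longer passed without the factor (-0.23, FDR 0.0578). Without the factor the median of all genes stood at 0.46 in STR and 0.37 in PFC against NPCs. *Phf8* then passed as higher than in NPCs in STR (0.54, FDR 5.96e-04) and PFC (0.37, FDR 0.00724). *Kdm7a* then passed as higher in STR (0.96, FDR 0.00442) and PFC (0.87, FDR 0.0077) than in ESCs and in STR (0.72, FDR 0.0118) and PFC (0.63, FDR 0.0231) than in NPCs. Without WT ESC replicate 2, the sample rich in fibroblast RNA, the log2 fold changes of *Phf8* against ESCs were -0.81 in NPCs, -0.64 in STR and -0.79 in PFC, with FDRs of 1.84e-04, 8.24e-04 and 1.76e-04.

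The balance of the family differed by tissue, with ratios and shares that rest on the merged exon length. In WT ESCs *Phf8* was 1.83 ± 0.465 times *Phf2* (SD, n = 2, ratio of RPKM) and *Kdm7a* was 0.983 ± 0.143 times *Phf8*. In WT NPCs *Phf2* was 5.65 ± 0.282 times *Phf8* (SD, n = 3), in STR 3.32 ± 0.319 times and in PFC 3.19 ± 0.318 times. *Phf8* made up 39.3% of the summed RPKM of the 3 genes in both WT ESC samples, 11.9% ± 0.979 in WT NPCs, 15.7% ± 0.33 in WT STR and 15.7% ± 0.863 in WT PFC (SD, n = 3). Among 17888 genes ranked by mean RPKM, *Phf8* stood above 58.9% of genes in WT ESCs and above 45.9% to 48.4% elsewhere. *Phf2* stood above 48.3% in WT ESCs and 85.9% in WT NPCs, and *Kdm7a* above 58.7% to 65.5% throughout.

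Across the 11 WT samples the genes most like each member, by Pearson's r of log2(CPM + 0.5), were as follows. The points share 4 tissues, so r mostly reflects the order of tissues and is given as a description. For *Phf8* they were *Ago2* (r = 0.992), which encodes the slicing Argonaute protein, *Ccnt2* (r = 0.988), a cyclin of the elongation kinase P-TEFb, and *Hykk* (r = 0.987), a hydroxylysine kinase. For *Phf2* they were *Zfp579* (r = 0.997), *AU040320* (r = 0.996) and the bicarbonate transporter gene *Slc4a4* (r = 0.996), and for *Kdm7a* they were *AU022252* (r = 0.937), *Avl9* (r = 0.909) and *Prkab2* (r = 0.899), which encodes a subunit of the energy sensor AMPK. Between the members r was -0.912 for *Phf8* with *Phf2*, -0.157 for *Phf8* with *Kdm7a* and 0.193 for *Phf2* with *Kdm7a*.

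The KO comparison asks first how much *Phf8* RNA is left, which also checks the labels. *Phf8* RNA, counted over the whole gene, fell in all 4 tissues but was far from absent. This is not a measure of intact transcript or of protein. The paper reports that KO ESCs lacked reads over the deleted exons and lacked PHF8 protein on a western blot. It also reports no PHF8 staining in the KO hippocampus. In KO ESCs the *Phf8* level was 1.77 and 2.39 RPKM (183 and 225 counts) against 7.65 and 6.79 RPKM in WT. In KO NPCs it was 1.59, 1.76 and 1.69 RPKM (168 to 207 counts) against 4.40 to 4.65 RPKM. In KO STR it was 2.18, 2.15 and 1.44 RPKM (106 to 182 counts), and in KO PFC 2.21, 1.65 and 1.57 RPKM (119 to 182 counts). Each of the 11 KO samples was below each of the 11 WT samples, within and across tissues. Within a tissue, every KO sample below every WT sample was seen for 12% of all genes in ESCs and 4.52% in NPCs, and for 5.87% in STR and 9.35% in PFC.

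In the fit over all 22 samples, the average log2 fold change of *Phf8* over the 4 tissues was -1.49 (SE 0.082, FDR 1.12e-08), which leaves 35.7% of the WT level (95% interval 31.7 to 40.2). It had the smallest p-value of 18080 genes, of which 0.0332% passed. Neither this fit nor those by tissue used the NPC pairs unless stated. Fitted tissue by tissue, 28.9% of the WT level remained in ESCs (95% interval 19.1 to 43.8) and 37.5% in NPCs (32.2 to 43.6). In the brain 38.8% remained in STR (30.6 to 49.2) and 38.7% in PFC (31.6 to 47.3). The fall passed the FDR threshold of 0.05 within NPCs (log2 fold change -1.42, SE 0.091, FDR 0.0285) and PFC (-1.37, SE 0.133, FDR 0.00193), where 0.00697% and 0.638% of all genes passed. It did not pass within ESCs (-1.79, SE 0.218, FDR 1, unadjusted p = 0.00106 in the edgeR fit) or STR (-1.37, SE 0.153, FDR 0.0956), where 0 genes passed, although *Phf8* had the smallest p-value of all genes in both. At an unadjusted p under 0.05 there were 171 genes in ESCs (1.13%) and 1346 in STR (8.7%). edgeR's exact test called 2 and 104 genes there and DESeq2 called 3 and 60, *Phf8* among them each time. With the replicate number as a block, 513 and 8 genes were called, again with *Phf8*, but the numbers were not taken as pairs in these tissues.

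The remaining share did not differ detectably between tissues (edgeR interaction of genotype with tissue, F = 1.38, FDR 1, with 0% of genes passing). The KO effect was 0.38 (log2) smaller in NPCs than in ESCs, with a 95% interval of -0.12 to 0.88, and differed by 0.02 between PFC and STR (-0.44 to 0.48). The NPC call rests on all 6 samples, since leaving out any of them raised the FDR of *Phf8* to between 0.154 and 0.544, while the log2 fold change kept between -1.45 and -1.37. The replicate numbers were taken as pairs in NPCs because same-numbered samples deviated together in these same counts, not from a named shared source. With the pair as a block *Phf8* stayed called (FDR 0.0167) and the number of genes called rose from 1 to 3. In STR, the call was made when KO replicate 3 was left out (log2 fold change -1.20, FDR 0.0145).

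**Figure D3:**
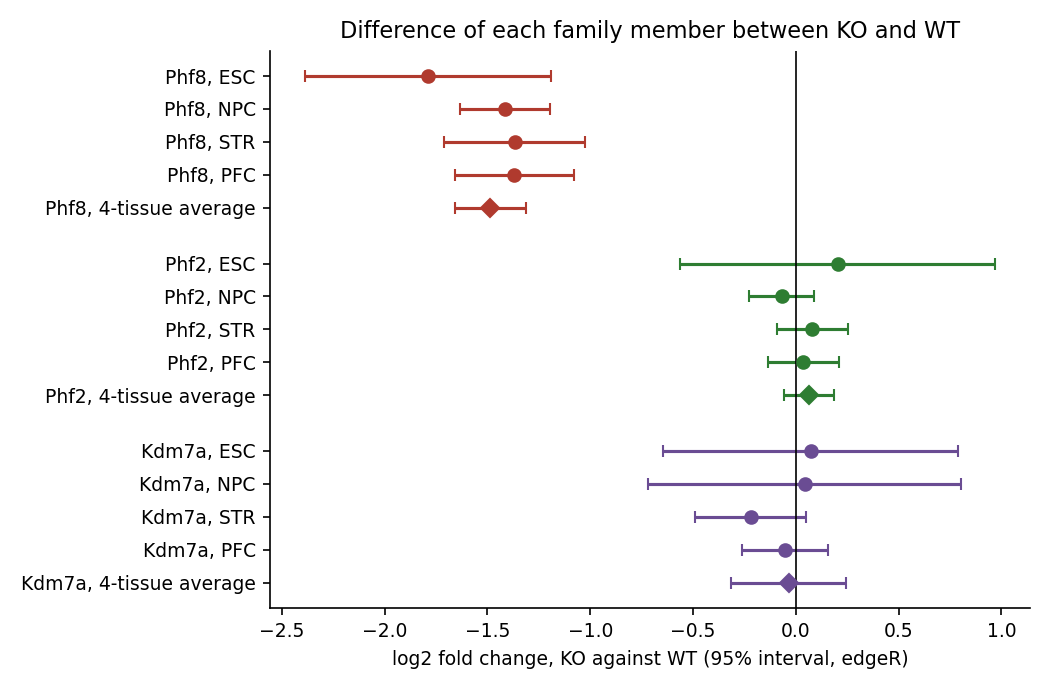
Log2 fold change of each gene between KO and WT (horizontal axis, 0 for no difference) with its 95% interval from edgeR, for each tissue (circles) and for the average over 4 tissues (diamonds). The *Phf8* averages 35.7% of the WT level and its intervals lie far below 0, whereas each interval of *Phf2* and *Kdm7a* includes 0.

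In ESCs the fibroblast content moved with the remaining *Phf8*. In replicate 1, with fibroblast markers at 173 (WT) and 164 CPM (KO), KO *Phf8* was 23.1% of the same-numbered WT sample. In replicate 2, with 3850 and 4670 CPM, it was 35.2%. With 1 sample of each genotype per number there is no test of either value, and the part of feeder RNA was not tested. Leaving replicate 2 of both genotypes out of the 4-tissue fit gave an average log2 fold change of -1.57 (FDR 8.15e-08). Y-linked RNA was also low in both KO ESC samples, at 9.01 and 36.3 CPM, and this too cannot be told apart from the genotype in ESCs. In STR, KO replicate 3 had the least *Phf8* (1.44 RPKM) and the lowest hypothalamic marker sum of the KO samples (5.94 CPM), while replicates 1 and 2, with 127 and 16.8 CPM, had 2.18 and 2.15 RPKM. The part of these markers was not tested.

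The paralogs were next examined for a change with loss of *Phf8*. *Phf2*, the most abundant of the 3 outside ESCs, did not pass in any tissue, and its KO and WT samples overlapped in all 4. Groups without overlap were seen for 23.8% of all genes in ESCs and 8.33% in NPCs, and for 13.4% in STR and 17.1% in PFC. In KO ESCs it was 3.84 and 5.43 RPKM against 3.54 and 4.52 RPKM in WT. In KO NPCs it was 24.1, 24.6 and 23.6 RPKM, in KO STR 17.2, 16.1 and 18.9 RPKM, and in KO PFC 16.2, 14.9 and 14.5 RPKM. Above the highest WT sample of the tissue were 1 of the 2 KO ESC samples, 2 of the 3 KO STR samples and 1 of the 3 KO PFC samples, and 2 of the 3 KO NPC samples were below the lowest WT sample.

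For *Phf2* the log2 fold change was 0.20 in ESCs (95% interval -0.56 to 0.97, FDR 1), -0.07 in NPCs (-0.23 to 0.09, FDR 1), 0.08 in STR (-0.09 to 0.25, FDR 0.835) and, in PFC, 0.04 (-0.13 to 0.21, FDR 0.922). Averaged over the 4 tissues, KO samples had 104% of the WT level, with a 95% interval of 96 to 114. A rise of *Phf2* above 114% of WT on average is thus outside the interval, but within ESCs alone the interval runs from 67.6% to 196%. With the replicate number as a block it ran from 98.6% to 133%. That fit has 1 residual degree of freedom, and the ESC numbers were not taken as pairs. Both ESC samples of replicate 2 had more *Phf2* than those of replicate 1, and the KO to WT ratio was 108% in replicate 1 and 120% in replicate 2.

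*Kdm7a* did not pass in any tissue either, and its groups overlapped in all 4. It was 9.27 and 5.86 RPKM in KO ESCs and 9.18, 5.49 and 10.3 RPKM in KO NPCs. In the brain it was 7.76, 8.96 and 9.55 RPKM in KO STR and 11.03, 9.58 and 8.68 RPKM in KO PFC. The spread lay between replicates more than between genotypes, since in both ESCs and NPCs replicate 2 was the lowest sample of each genotype. These were the ESC samples rich in fibroblast RNA. In NPCs, replicate 2 had the least glial RNA of each genotype: 6 oligodendrocyte markers summed to 219 (WT) and 411 CPM (KO), against 1870 to 3120 CPM in the other 4 samples, and 5 astrocyte markers to 2900 and 3880 CPM, against 4680 to 6690 CPM. The part of these cells in the level of *Kdm7a* was not tested.

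For *Kdm7a* the log2 fold change was 0.07 in ESCs (95% interval -0.65 to 0.79, FDR 1) and 0.04 in NPCs (-0.72 to 0.81, FDR 1). It was -0.22 in STR (-0.49 to 0.05, FDR 0.664) and, in PFC, -0.05 (-0.26 to 0.16, FDR 0.906). Averaged over the 4 tissues, KO samples had 97.6% of the WT level (95% interval 80.5 to 118). In NPCs the KO to WT ratio within each numbered pair was 106%, 105% and 98.9%. With the pair as a block the estimate in NPCs was 103% of WT with an interval of 94.2 to 114, where it was 60.8 to 175 without it, and the gene was not called in either fit (FDR 0.781 with the block). The interaction of genotype with tissue did not pass for *Phf2* (F = 0.843, FDR 1) or *Kdm7a* (F = 0.272, FDR 1).

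The share of *Phf8* in the family was lower in every KO sample, and the summed level of the 3 genes was compared as well. *Phf8* went from 39.3% of the summed RPKM to 11.9% and 17.5% in KO ESCs, from 11.9% to 4.94% ± 0.514 in NPCs, from 15.7% to 6.9% ± 1.81 in STR and from 15.7% to 6.72% ± 0.7 in PFC (SD, n = 3). The groups did not overlap in any tissue, and the two-sided exact permutation test gave p = 0.333 in ESCs and 0.1 in each other tissue, the smallest values that these group sizes allow. Because *Phf8* is the numerator of the share, this restates its lower level in KO and is not a separate result. The sum of the 3 genes in KO ESCs, NPCs, STR and PFC was 77.6%, 89.9%, 88.5% and 91.2% of WT (exact permutation p = 0.333, 0.3, 0.1 and 0.2). These tests did not use the NPC pairs. In WT NPC replicates 1, 2 and 3 the sum was 39.4, 33.8 and 40.5 RPKM. In the KO samples of the same numbers it was 34.8, 31.9 and 35.6 RPKM, and the paired differences were not tested. The sum of *Phf2* and *Kdm7a* alone was 109%, 97%, 97.9% and 101% of WT, with exact permutation p of 0.667, 0.6, 0.6 and 0.9.

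**Figure D4:**
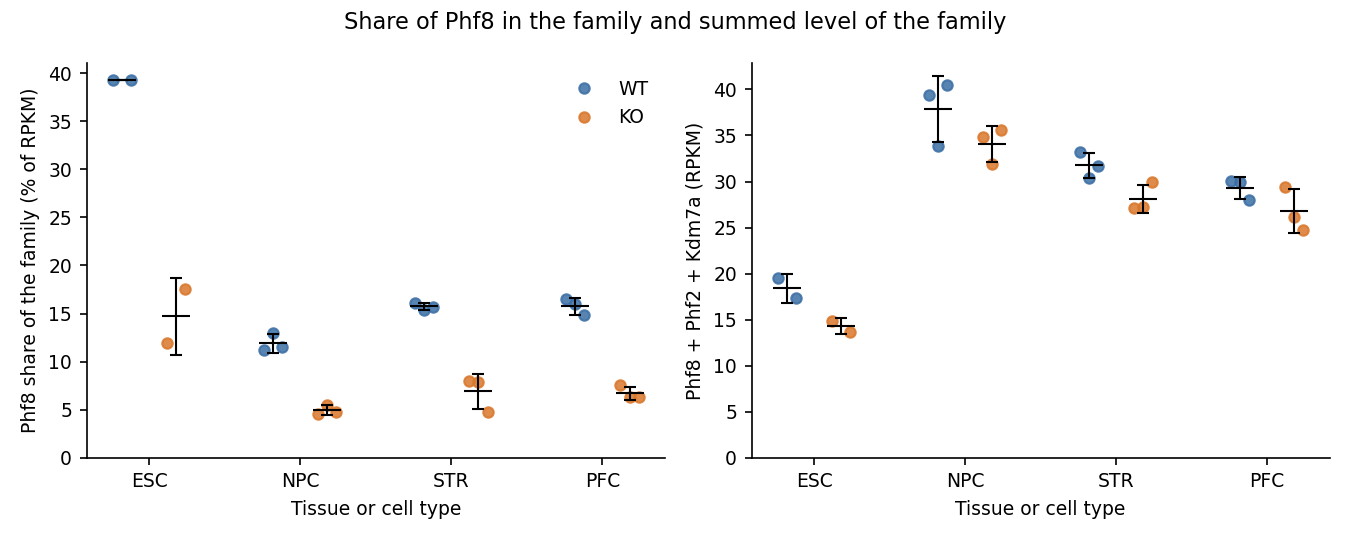
Share of *Phf8* in the summed RPKM of the 3 genes (left, percent) and that sum (right, RPKM) in every sample, WT in blue and KO in orange, with black bars for the mean and SD. The share falls from 39.3% to between 11.9% and 17.5% in ESCs and to between 4.55% and 8.01% in the other tissues, where each WT sample is at 11.2% or more.

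Genes related to the family, not all of them for the same marks, were compared over the same samples. Of 20 other JmjC genes, 19 or 20 were tested per tissue and 0 passed in any of the 4, where 0%, 0.00697%, 0% and 0.638% of all genes passed in ESCs, NPCs, STR and PFC. At such shares a count of 0 says little about a list of this size or of those that follow. The median log2 fold change of the list was -0.02, 0.01, -0.02 and 0.02 in the order ESCs, NPCs, STR and PFC, beside 0.01, 0.00, 0.00 and -0.02 for all genes tested. At an unadjusted p under 0.05 there were 1, 0, 2 and 3 of them in these tissues, beside 1.13%, 3.03%, 8.7% and 11.2% of all genes. The most abundant were *Kdm3a* and *Kdm4b*, which act on lysine 9 of H3, *Kdm4a*, which acts on lysines 9 and 36, and the X-linked *Kdm5c*, which acts on lysine 4, with average log2 fold changes of -0.08 (95% interval -0.26 to 0.09), -0.07 (-0.29 to 0.15), -0.02 (-0.10 to 0.06) and 0.04 (-0.06 to 0.14). The lowest single value, -3.29 in ESCs (FDR 1), was that of the Y-linked *Uty*, singled out after its value was seen, at 36.3 and 32.2 CPM in WT and 1.35 and 5.55 CPM in KO ESCs, as *Ddx3y* and *Eif2s3y* were also lower in both KO ESC samples. The Y-linked *Kdm5d*, also of this list, was at 0.305 and 2.68 CPM in WT ESCs and at 0.36 and 2.87 CPM in KO ESCs.

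Of 13 methyltransferase genes for lysines 9 and 27 of H3 and lysine 20 of H4, 0 passed in any tissue. Their medians were -0.08, -0.07, -0.02 and 0.00 in ESCs, NPCs, STR and PFC. Averaged over the tissues, *Ehmt2*, the main writer of dimethylated lysine 9 of H3, differed by 0.00 (95% interval -0.08 to 0.08). *Suz12* and *Eed*, subunits of the complex that methylates lysine 27, differed by -0.02 (-0.14 to 0.10) and -0.10 (-0.21 to 0.02). *Kmt5a*, the writer of monomethylated lysine 20 of H4, had -0.12 (-0.22 to -0.01, FDR 0.752).

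Of 6 partner genes, 0 passed in any tissue, with medians of -0.01, -0.06, -0.05 and -0.02 in the same order. *Wdr5*, a shared subunit of lysine 4 methyltransferase complexes, had an average of -0.14 (95% interval -0.24 to -0.04, FDR 0.559), *Ubtf*, an activator of ribosomal RNA transcription, -0.02 (-0.12 to 0.08), *Hcfc1*, a chromatin cofactor, 0.03 (-0.13 to 0.19), and *E2f1*, a cell-cycle factor, -0.06 (-0.18 to 0.06). Of 30 genes annotated within 500 kb of *Phf8*, 9 to 11 were tested per tissue and 0 passed, with medians of -0.02, 0.03, 0.10 and 0.03. The estimate was higher in KO for 3 of 9, 5 of 9, 8 of 9 and 7 of 11 of them in the same order. The medians of all genes tested were 0.01, 0.00, 0.00 and -0.02. The most abundant of the neighbouring genes were the processed pseudogene *Gm15148*, whose reads may belong to its parent gene, the mitochondrial dehydrogenase gene *Hsd17b10*, the cohesin gene *Smc1a* and the ubiquitin ligase gene *Huwe1*, with averages of 0.25 (95% interval -0.68 to 1.18), -0.06 (-0.16 to 0.04), -0.03 (-0.11 to 0.06) and 0.08 (-0.15 to 0.31). *Gm15148* was abundant only in cultured cells, at 224 and 138 RPKM in WT ESCs and NPCs. It was at 0.719 and 0.187 RPKM in WT STR and PFC, where it was not tested within the tissue. Its log2 fold changes were 0.32 in ESCs and 0.30 in NPCs, without a call.

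**Figure D5:**
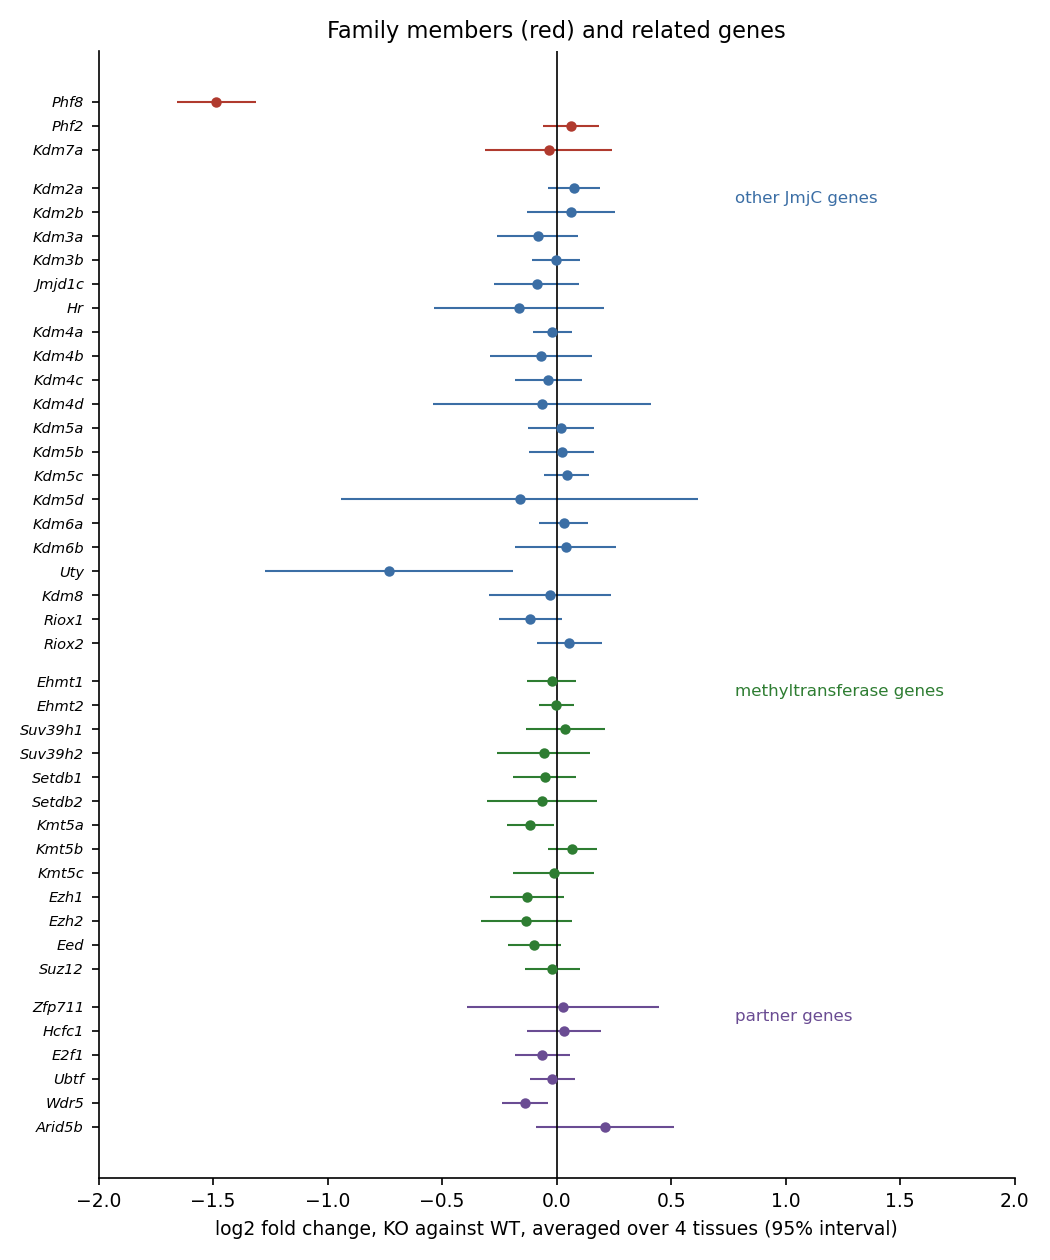
Log2 fold change between KO and WT averaged over the 4 tissues (horizontal axis) with its 95% interval from edgeR, for the 3 family members (red), 20 other JmjC genes (blue), 13 methyltransferase genes (green) and 6 partner genes (purple). *Phf8* lies at -1.49, and the next lowest is the Y-linked *Uty* at -0.73 (FDR 0.57).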

How the data were processed

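The authors deposited raw counts per gene, without normalization, made by aligning reads to mm10/GRCm38 with STAR and counting with HTSeq on Ensembl release 75. File names call the ESC and NPC counts not stranded, and the setting for brain is not given in the sources used here. Reads on no gene were 5.35% to 9.21% of those listed per cell sample and 9.38% to 15.4% per brain sample and were left out. Positions and exon lengths came from GENCODE M21 (GRCm38), which matched 37693 of 39179 identifiers. Genotypes were compared in each tissue, and over all 22 samples, by the quasi-likelihood test of edgeR 4.0.16 (R 4.3.3) with TMM scaling, edgeR's expression filter, robust estimation and an FDR of 0.05. The fit within tissues was also run on simulated counts, which held no shared differences between same-numbered samples. No result given here rests on that run. Alternatives included DESeq2 1.42.0, other filters and scalings, and left-out replicates. Named genes were the 3 members, up to 4 genes per list by WT RPKM, and the 3 genes most like each member. The members, lists and rules were chosen with earlier results of these data known. Same-numbered NPC samples deviated together (r = 0.569, 0.705 and 0.524), so the numbers, which come from the labels, were taken as pairs there. No 2 samples of a group held the same counts up to counting error (ratio of chi-square to its degrees of freedom, 1.89 to 40.5). The labels do not say whether replicates came from separate cultures or animals, so p-values measure the spread between these samples. Total counts per sample were 5898286 to 15539811.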

Additional observations from a re-analysis of the deposited data

How the results depend on the processing

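*Phf8* was lower in KO than in WT under every alternative run. Its average over the 4 tissues ranged from -1.57 to -1.38 (log2) over 5 other settings and from -1.55 to -1.44 with each sample left out, always past the threshold.

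Calls within a tissue depended on the fit. In ESCs *Phf8* passed with edgeR's exact test (-1.79), DESeq2 (-1.80), a replicate block (-1.80) and all 22 samples fitted together (-1.80), and the number of genes called went from 0 to 2, 3, 513 and 1. In STR it passed with no filter (-1.37), the block (-1.38), the exact test (-1.37), DESeq2 (-1.37) and all samples together (-1.38), with 27, 8, 104, 60 and 4 genes called instead of 0. In NPCs 2, 3, 2, 3 and 2 genes were called instead of 1 with no filter, the replicate block, the exact test, DESeq2 and all samples together. In PFC 379, 376, 182 and 1 were called instead of 98 with no filter, the exact test, DESeq2 and all samples together. The same-numbered samples in ESCs deviated together (r = 0.876, 2 pairs), those in STR and PFC did not (r = -0.032 to 0.133), and with 2 pairs the ESC numbers were not taken as pairs, although the fibroblast content follows them. Nor were those in STR and PFC. The replicate block changed no other call of the 3 genes. In ESCs, with 1 residual degree of freedom, it gave intervals of 98.6% to 133% of WT for *Phf2* and 95.7% to 114% for *Kdm7a*. For the fits with all samples together, the cause was not tested.

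With each replicate left out in turn, the log2 fold change of *Phf8* ranged from -2.09 to -1.54 in ESCs, -1.45 to -1.37 in NPCs, -1.47 to -1.20 in STR and -1.54 to -1.28 in PFC. That of *Phf2* ranged from -0.14 to 0.47 in ESCs, -0.01 to 0.10 in PFC and -0.005 to 0.12 on average, and that of *Kdm7a* from -0.23 to 0.32 in ESCs, -0.19 to 0.27 in NPCs, -0.15 to 0.025 in PFC and -0.13 to 0.037 on average, without a call. The number of genes called was 0 in NPCs, 0 to 2 in STR and 2 to 154 in PFC, the lowest without KO replicate 2 or 3 and the highest without WT replicate 1. In ESC replicate 2 alone, chosen after the fibroblast markers were seen, *Kdm7a* was -0.03.

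Between WT tissues, 2 and 3 of the members passed without a scaling factor in STR and PFC against NPCs, instead of 1 in each. In STR these were *Phf8* and *Kdm7a* in place of *Phf2*, and in PFC all 3. The share of all genes passing without the factor was not counted. The median gene stood at 0.46 and 0.37 there, and *Phf8* at 0.07 and -0.01 relative to it. Against ESCs, *Kdm7a* passed in place of *Phf8* in both regions. Left-out replicates gave 1 to 2 in STR against NPCs. They also turned the uncalled log2 fold changes of *Kdm7a* in NPCs against ESCs (-0.087 to 0.40) and in PFC against STR (-0.16 to 0.06), and of *Phf8* in PFC against NPCs (-0.019 to 0.12). Without WT NPC replicate 2, *Kdm7a* passed in STR (0.49, FDR 0.0155) and PFC (0.43, FDR 0.03) against ESCs. Few samples per group, 106 to 732 counts of *Phf8* per sample and the spread between samples limit precision. That spread, edgeR's common coefficient of variation fitted without a replicate block, was 31.4% in ESCs and 8.52% in PFC. In ESCs it takes in any difference between replicates 1 and 2, whose fibroblast RNA also differed.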
